A study of Mus musculus with 42 samples.

Results

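The nuclear genes for subunits of respiratory complexes II, III and IV and of ATP synthase (complex V) were followed through mouse cerebellum on intermittent fasting and after refeeding. Members were all protein-coding genes of the deposited tables whose symbol is Sdha, Sdhb, Sdhc or Sdhd or begins with Uqcr, with Cox and a digit from 4 to 8, or with Atp5. This rule found 47 of 35275 listed genes, of which 4 belong to complex II, 8 to complex III, 18 to complex IV and 17 to complex V. A further 3 genes match the symbols but are listed as pseudogenes (Atp5l-ps1, Atp5l-ps2 and Atp5l2-ps, with at most 20 counts in any library) and were left out. The symbols bring in 3 proteins that are not core subunits as background knowledge has it: Cox7a2l is a supercomplex assembly factor, and Atp5s and Atp5sl carry old ATP synthase names for coupling and assembly proteins.

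RNA-seq libraries came from the cerebellum of male C57/BL6NTac mice (C57BL/6 in the sample labels) that entered their regimens at 3 months of age. At the end of the regimens, at 6 months, the groups were mice fed freely (AL), mice fasted for 16 h every day (IF16) and mice fasted for 24 h on alternate days (EOD). The groups AL-R, IF16-R and EOD-R (the labels have a point for the hyphen) went through the same 3 months and were then fed ad libitum for 2 months, to 8 months of age, so that none of these mice was fasted in the last phase. Each of the 6 groups had 5 libraries, and the label numbers them as replicates. No mouse carried a genetic change according to the labels, and no label gives the hour of collection relative to the last meal. Nothing more is said on how separate the samples were, so p-values measure the spread between these samples.

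As background, complex II passes electrons from succinate to ubiquinone, complex III passes them from ubiquinol to cytochrome c, and complex IV hands them to oxygen. Complexes III and IV pump protons while doing so, and ATP synthase uses the returning protons to make ATP. Complex II is encoded in the nucleus alone, whereas complexes III, IV and V also need subunits made inside mitochondria, so their assembly draws on both genomes. Neurons rely on this chain for the ion pumping that follows synaptic activity, and the cerebellar granule cell layer is rich in mitochondria at its synapses. Several subunits of complex IV and subunit c of ATP synthase come from small families of isoform genes, some of which are known from heart, muscle, lung or testis.

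Total counts ran from 26799825 to 36167435 a library, and the members together held 0.809% to 1.24% of them. Markers of granule cells (7 of 7) and Purkinje cells (7 of 7) were all at 1 CPM (counts scaled to the library's total) or more in every group, as the labelled tissue has them, and none of 6 germ cell markers reached that level. Libraries differed in a length gradient, the slope over all other genes of a library's log2 CPM deviation on log2 gene length. A positive slope means that long genes read high and short genes low. At the end of the regimens 4 libraries had slopes beyond 0.1 in size: AL replicate 4 (-0.16), AL replicate 5 (-0.11), IF16 replicate 1 (-0.11) and EOD replicate 4 (0.14). After refeeding all slopes lay between -0.026 and 0.042. The results at the end of the regimens are therefore also given without those 4 libraries.

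The members were among the most abundant messages of the tissue. Their median in AL was 125 FPKM, against 10.4 FPKM for the 12291 protein-coding genes above 1 FPKM. FPKM are deposited fragments scaled by gene length and library size, a level per length used to compare genes. A gene whose deposited length exceeds that of its main transcript reads too low in FPKM, so the order of members depends on those lengths. In AL-R the median was 95.4 FPKM against 10.7. Among all protein-coding genes 6 members ranked in the top 100 in AL, and 22 in the top 500. The order in AL was led by Cox6a1 with 1097 ± 209 FPKM (SD, n = 5), Atp5b with 871 ± 76.3, Cox8a with 727 ± 145, Cox4i1 with 619 ± 137 and Cox5b with 462 ± 108. From Cox6a1 down to Cox7a1, each member's range over the 5 AL libraries overlapped that of the member next in order. Below Cox7a1 (21.9 ± 4.76 FPKM) came Atp5s (11.4 ± 0.205), Cox4i2 (5.78 ± 1.15), Cox8b (2.51 ± 0.901), Cox7b2 (1.20 to 2.28), Cox6a2 (0.361 ± 0.222) and Cox8c, which was at 0. Of these last members, the ranges of Cox8b and Cox7b2 alone overlapped.

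**Figure D1:**
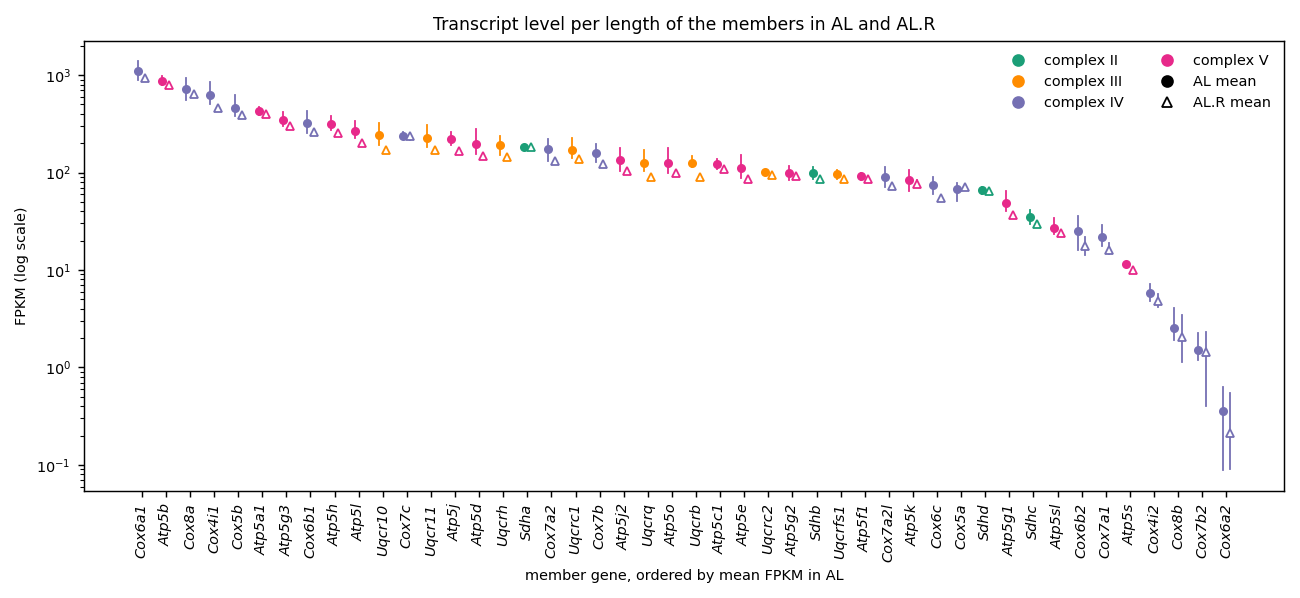
Deposited FPKM of 46 members on a log axis, ordered by their AL mean, with circles for the AL mean, open triangles for the AL-R mean, vertical lines for the range over 5 libraries and colours for the complex. Cox8c is not drawn because it had 0 counts. The levels fall from 1097 FPKM for Cox6a1 to 0.361 FPKM for Cox6a2 in AL.

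Per complex, the AL medians were 82.1 FPKM for complex II, 149 FPKM for complex III, 82.1 FPKM for complex IV and 125 FPKM for complex V. Complex IV had the widest spread among its own genes, from 0 to 1097 FPKM. Members are short: the median length of the 45 tested members was 927 bases against 2988 bases for all 16577 genes tested at the end of the regimens. Of the tested members 25 were under 1000 bases, and of all tested genes 8.90%. In the deposited annotation 12 members overlap another listed gene, 2 of them on the same strand, and the counts of Cox4i1 (with Emc8 and Gm20388) and Atp5o (with 6 neighbours, among them Donson and Cryzl1) are uncertain for that reason.

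In complex II, Sdha is the flavoprotein that oxidises succinate, Sdhb the iron-sulphur subunit, and Sdhc and Sdhd the membrane anchors. Sdha stood at 493, 504, 536, 562 and 536 CPM in AL, at 557, 545, 521, 532 and 543 in IF16 and at 515, 551, 540.1, 582 and 554 in EOD. In the refed table Sdha read 506, 524, 518, 540.2 and 532 CPM (AL-R), 517, 538, 539, 551 and 565 CPM (IF16-R) and 536, 539.6, 536, 549.6 and 546 CPM (EOD-R). The Sdha values lay close together within each table, and every pair of groups within a table overlapped. Its largest log2 fold change was 0.060 (EOD vs AL, SE 0.0547), with an edgeR adjusted p of 0.550. Sdha had the lowest spread within groups of any tested member at the end of the regimens, a coefficient of variation of 4.22%, and again after refeeding, 2.45%.

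Sdhb stood at 107, 105, 118, 146 and 133 CPM in AL, at 138, 117, 108, 119.8 and 114 in IF16 and at 112, 117, 122, 103 and 116 in EOD. Refed libraries held Sdhb at 101, 103, 99.6, 111 and 108 CPM (AL-R), 98.7, 103, 97.8, 100.5 and 95.5 CPM (IF16-R) and 95.0, 106, 104, 101 and 105 CPM (EOD-R). The Sdhb values of AL replicates 4 and 5 and of IF16 replicate 1 were the highest of the first table, and the groups overlapped. Sdhc stood at 100.1, 92.7, 108, 135 and 122 CPM in AL, at 129.6, 108, 114, 114 and 111 in IF16 and at 103, 106, 115, 90.8 and 104 in EOD. Once refed, the libraries had Sdhc at 94.5, 92.3, 88.1, 94.6 and 93.7 CPM (AL-R), 88.1, 95.1, 87.4, 86.3 and 85.0 CPM (IF16-R) and 82.6, 96.1, 96.1, 93.0 and 95.9 CPM (EOD-R). For Sdhc the same 3 libraries were the highest at the end of the regimens and EOD replicate 4 the lowest. Sdhc had the smallest p of all members in EOD vs IF16, with a log2 fold change of -0.15 (SE 0.0946, unadjusted p = 0.123, edgeR adjusted p = 0.977). Sdhd stood at 77.4, 77.4, 84.9, 91.5 and 92.2 CPM in AL, at 94.4, 84.8, 88.2, 84.4 and 84.0 in IF16 and at 79.4, 82.3, 90.2, 68.0 and 84.8 in EOD. Sdhd in the refed mice stood at 86.7, 81.6, 80.8, 83.1 and 81.5 CPM (AL-R), 78.3, 82.5, 78.4, 83.6 and 71.8 CPM (IF16-R) and 82.3, 87.4, 80.7, 82.4 and 84.2 CPM (EOD-R). Sdhd was lowest in EOD replicate 4 and, after refeeding, in IF16-R replicate 5, and its groups overlapped in each table.

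In complex III the core proteins Uqcrc1 and Uqcrc2, the Rieske protein Uqcrfs1 and the small subunits Uqcrb, Uqcrh, Uqcrq, Uqcr10 and Uqcr11 were all measured, at mean levels of 96.2 to 241 FPKM in AL. Uqcr10, a small subunit of the membrane part, had the highest mean. Uqcr10 stood at 108, 96.1, 105, 171 and 138 CPM in AL, at 153, 120.4, 109, 108 and 108 in IF16 and at 106, 106, 129, 69.5 and 113 in EOD. After refeeding, Uqcr10 was at 86.2, 87.9, 86.3, 88.1 and 87.0 CPM (AL-R), 74.2, 88.8, 80.0, 95.5 and 80.3 CPM (IF16-R) and 85.0, 99.8, 89.3, 89.5 and 98.2 CPM (EOD-R). For Uqcr10, AL replicates 4 and 5 and IF16 replicate 1 stood high, EOD replicate 4 stood lowest, and the refed libraries kept within a narrower band, with all groups overlapping. Uqcrc2, a core protein whose gene is longer than most members, had a coefficient of variation within groups of 4.26% at the end of the regimens, while the median of complex III was 16.9%.

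Complex IV holds several isoform families, in which the share of each isoform can be read in FPKM. In AL, Cox6b1 held 92.8% ± 1.21 of the Cox6b family and Cox7b 99.1% ± 0.164 of the Cox7b family (SD, n = 5 each), the rest being the testis isoforms Cox6b2 and Cox7b2. The widely expressed Cox4i1 made up 99.1% ± 0.0713 (SD, n = 5) of the Cox4i family in AL, and Cox4i2, the isoform known from lung and from brain pericytes, 0.929%. Cox4i1 stood at 375, 399.6, 429, 662 and 512 CPM in AL, at 599, 458, 367, 404 and 403 in IF16 and at 376, 395, 468, 307 and 500.1 in EOD. In the refed table Cox4i1 read 322, 349, 362, 369 and 367 CPM (AL-R), 316, 362, 337, 358 and 345 CPM (IF16-R) and 343, 381, 353, 373 and 392 CPM (EOD-R). AL replicate 4 and IF16 replicate 1 held the highest Cox4i1 values at the end of the regimens and EOD replicate 4 the lowest, and the groups overlapped in both tables. Cox4i2 stood at 3.59, 3.49, 3.63, 5.49 and 5.06 CPM in AL, at 5.26, 4.20, 3.34, 3.53 and 4.45 in IF16 and at 3.54, 3.57, 3.64, 2.90 and 3.77 in EOD. Refed libraries held Cox4i2 at 3.69, 3.18, 3.59, 3.09 and 4.17 CPM (AL-R), 3.04, 3.90, 4.04, 3.85 and 3.54 CPM (IF16-R) and 3.73, 3.41, 4.24, 3.45 and 4.01 CPM (EOD-R). The EOD values of Cox4i2 lay around those of AL replicates 1 to 3 and below AL replicates 4 and 5, so the groups overlapped, as they did after refeeding.

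Cox4i2 had the smallest p of all members in EOD vs AL, with a log2 fold change of -0.28 (SE 0.156, unadjusted p = 0.0873, edgeR adjusted p = 0.375). The 4 libraries of steep length gradient held its highest AL values and its lowest EOD value. Without them the sign turned, to 0.024 (edgeR adjusted p = 0.988). The pericyte markers, 8 of 8 at 1 CPM or more in every group, had a summed level of 250 to 308 CPM in AL and 226 to 263 CPM in EOD. In EOD vs AL 7 of 8 had a negative log2 fold change. They were also negative in 7 of 8 in IF16 vs AL, where Cox4i2 had -0.031. After refeeding 8 of 8 were negative in IF16-R vs AL-R and 7 of 8 in EOD-R vs AL-R, where Cox4i2 had 0.051 and 0.088. The part of pericytes in the Cox4i2 values was not tested, and in bulk tissue fewer cells of a type and less RNA per cell cannot be told apart.

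The Cox6a family was almost wholly Cox6a1, the isoform known from liver and most tissues, at 99.97% in AL, with the heart and muscle isoform Cox6a2 at 0 to 14 counts a library. Cox6a1 stood at 539, 603, 603, 887 and 782 CPM in AL, at 843, 697, 508, 569 and 568 in IF16 and at 599.9, 546, 624, 599 and 681 in EOD. Once refed, the libraries had Cox6a1 at 559.6, 553, 577, 599 and 569 CPM (AL-R), 505, 580.5, 539, 549 and 533 CPM (IF16-R) and 537, 574, 589.7, 557 and 613 CPM (EOD-R). Cox6a1 was highest in AL replicates 4 and 5 and IF16 replicate 1, and after refeeding its groups overlapped. Cox6a2 stood at 0.405, 0.142, 0.0571, 0.364 and 0.224 CPM in AL, at 0.180, 0.0913, 0.234, 0.307 and 0.120 in IF16 and at 0.258, 0.200, 0.184, 0.0299 and 0.252 in EOD. Cox6a2 in the refed mice stood at 0.0923, 0.0910, 0.0978, 0.357 and 0.0600 CPM (AL-R), 0.239, 0.229, 0.159, 0 and 0.132 CPM (IF16-R) and 0.102, 0.253, 0, 0.0977 and 0.0947 CPM (EOD-R). Cox6a2 was present at a few counts in nearly all libraries of both tables, without separation of groups, and fell under the filter on low counts.

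The Cox7a family was mixed. In AL, Cox7a2, the widespread isoform, held 61.1% ± 1.04 of its FPKM, Cox7a2l 31.3% ± 0.807 and the muscle isoform Cox7a1 7.60% ± 0.663 (SD, n = 5 each). Cox7a1 stood at 6.27, 6.70, 7.11, 10.9 and 9.02 CPM in AL, at 11.7, 7.73, 7.17, 7.00 and 6.04 in IF16 and at 6.78, 5.98, 8.08, 3.98 and 8.61 in EOD. After refeeding, Cox7a1 was at 5.33, 6.82, 5.35, 5.62 and 6.21 CPM (AL-R), 6.30, 5.50, 4.90, 6.12 and 5.32 CPM (IF16-R) and 5.09, 7.20, 6.13, 6.06 and 5.87 CPM (EOD-R). Cox7a1 was lowest in EOD replicate 4 and highest in IF16 replicate 1, and its groups overlapped in both tables. Cox7a2 stood at 118, 97.8, 127, 173 and 149 CPM in AL, at 182, 129, 149.6, 122 and 129 in IF16 and at 121, 133, 157, 89.3 and 121 in EOD. In the refed table Cox7a2 read 96.4, 94.9, 96.1, 102 and 104 CPM (AL-R), 83.0, 97.2, 90.8, 95.7 and 91.3 CPM (IF16-R) and 88.7, 104, 101, 98.2 and 106 CPM (EOD-R). For Cox7a2, 3 of 5 IF16-R values lay below every AL-R value, and IF16-R replicates 2 and 4 lay inside the range of AL-R. Cox7a2l stood at 93.2, 80.9, 98.9, 134 and 110.0 CPM in AL, at 121, 97.9, 92.9, 98.8 and 93.4 in IF16 and at 93.8, 86.2, 109.5, 79.0 and 92.2 in EOD. Refed libraries held Cox7a2l at 80.8, 83.7, 82.3, 87.3 and 82.4 CPM (AL-R), 79.6, 87.4, 80.9, 85.1 and 80.2 CPM (IF16-R) and 86.0, 94.8, 93.1, 89.0 and 94.2 CPM (EOD-R). The EOD-R values of Cox7a2l were the highest of the refed table in 4 of 5 libraries, with EOD-R replicate 1 inside the range of AL-R.

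The Cox8 family was 99.7% Cox8a in AL, with the muscle isoform Cox8b at 0.344% ± 0.0907 and the testis isoform Cox8c at 0 counts in all 30 libraries. For 1 library read alone, 0 counts allow up to 3 by counting error, and the 30 libraries together set a tighter limit. Cox8a stood at 373, 299, 354, 528 and 435 CPM in AL, at 525, 387, 430.1, 397 and 408 in IF16 and at 387, 386, 451, 301 and 385 in EOD. Once refed, the libraries had Cox8a at 337, 328, 346, 372 and 340.4 CPM (AL-R), 295, 329, 304, 315 and 309 CPM (IF16-R) and 311, 358, 383, 347 and 362 CPM (EOD-R). After refeeding 4 of 5 IF16-R values of Cox8a lay below every AL-R value. Cox8b stood at 0.694, 0.908, 0.685, 1.52 and 0.768 CPM in AL, at 1.56, 0.457, 0.585, 1.01 and 0.240 in IF16 and at 1.29, 0.802, 0.887, 0.569 and 1.29 in EOD. Cox8b in the refed mice stood at 1.23, 0.667, 0.620, 0.773 and 0.420 CPM (AL-R), 0.448, 0.516, 0.637, 0.473 and 0.463 CPM (IF16-R) and 0.204, 0.600, 0.899, 0.358 and 0.505 CPM (EOD-R). Cox8b was near the limit of detection, at 6 to 52 counts a library, and AL replicate 4 and IF16 replicate 1 were again its highest libraries. The sum of 8 skeletal and heart muscle markers was 7.65 to 10.1 CPM in AL and 7.74 to 19.8 CPM in AL-R, with 2 and 3 of 8 markers at 1 CPM or more, and its part in the levels of the muscle isoforms was not tested.

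In ATP synthase, Atp5b encodes the catalytic beta subunit. Atp5b stood at 1472, 1559.7, 1617, 1934 and 1772 CPM in AL, at 1792, 1655, 1475, 1598 and 1650.4 in IF16 and at 1525, 1627, 1638, 1611 and 1749.5 in EOD. After refeeding, Atp5b was at 1458, 1468, 1489.6, 1565 and 1588 CPM (AL-R), 1428, 1576, 1516, 1541 and 1538 CPM (IF16-R) and 1414, 1481, 1497, 1517 and 1521 CPM (EOD-R). Atp5b differed little between groups in either table and overlapped in every comparison. Subunit c, the rotor ring, is encoded by 3 genes with different import signals and the same mature protein. In AL, Atp5g3 held 70.2% ± 1.09 of their FPKM, Atp5g2 20.0% ± 0.869 and Atp5g1 9.79% ± 0.629 (SD, n = 5 each), and the order was the same in all 6 groups. These shares rest on deposited gene lengths of 4715 bases for Atp5g1, 753 for Atp5g2 and 862 for Atp5g3. In CPM, which is not divided by length, Atp5g1 stood above Atp5g2 in every library, so the order of these genes depends on the lengths used.

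Atp5g1 stood at 184, 191, 209, 312 and 257 CPM in AL, at 256, 215, 196, 208 and 199 in IF16 and at 207, 205, 231, 194 and 226 in EOD. In the refed table Atp5g1 read 175, 169, 176, 173 and 173 CPM (AL-R), 145, 168, 158, 165 and 155 CPM (IF16-R) and 146, 169.9, 182, 161 and 178 CPM (EOD-R). All 5 IF16-R values of Atp5g1 lay below the 5 AL-R values, with a log2 fold change of -0.13 (SE 0.0511, edgeR adjusted p = 0.420). Atp5g2 stood at 61.9, 66.4, 67.3, 90.2 and 88.3 CPM in AL, at 92.9, 76.7, 62.2, 69.0 and 69.6 in IF16 and at 68.0, 66.4, 73.7, 65.0 and 70.8 in EOD. Refed libraries held Atp5g2 at 70.2, 65.0, 65.8, 74.8 and 68.6 CPM (AL-R), 64.4, 72.9, 66.2, 66.6 and 68.5 CPM (IF16-R) and 70.7, 73.1, 77.0, 69.8 and 70.4 CPM (EOD-R). Atp5g2 overlapped between all groups, and its highest values were AL replicates 4 and 5 and IF16 replicate 1. Atp5g3 stood at 267, 254, 278, 368 and 333 CPM in AL, at 349.5, 298, 285, 292 and 289 in IF16 and at 292, 286, 312, 263 and 298 in EOD. Once refed, the libraries had Atp5g3 at 261, 252, 259, 268 and 261 CPM (AL-R), 234, 255, 242, 244 and 239.8 CPM (IF16-R) and 241, 269, 275, 260.2 and 277 CPM (EOD-R). Atp5g3 in IF16-R replicate 2 reached above the lowest AL-R value, while the other 4 IF16-R values lay below all of AL-R.

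Atp5s stood at 16.5, 16.8, 17.1, 17.3 and 16.9 CPM in AL, at 16.0, 14.9, 16.3, 15.1 and 17.0 in IF16 and at 14.6, 16.4, 16.8, 13.2 and 16.3 in EOD. Atp5s in the refed mice stood at 15.2, 15.6, 14.4, 13.7 and 15.6 CPM (AL-R), 14.9, 15.5, 14.4, 15.4 and 12.7 CPM (IF16-R) and 14.8, 17.3, 16.3, 15.2 and 15.5 CPM (EOD-R). Atp5s, the coupling factor B gene, was the steadiest member within AL and had the smallest p of all members in IF16 vs AL, with a log2 fold change of -0.093 (SE 0.0739, unadjusted p = 0.227, edgeR adjusted p = 0.659). Its IF16 and EOD values both ran from below AL into its range.

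Atp5k stood at 50.6, 37.9, 35.7, 61.4 and 49.3 CPM in AL, at 59.0, 48.6, 46.0, 46.3 and 49.9 in IF16 and at 53.1, 45.9, 61.0, 34.0 and 54.7 in EOD. After refeeding, Atp5k was at 40.9, 41.1, 44.8, 47.1 and 40.9 CPM (AL-R), 31.7, 38.5, 33.0, 34.0 and 34.7 CPM (IF16-R) and 40.0, 42.8, 42.1, 46.6 and 42.6 CPM (EOD-R). Atp5k (ENSMUSG00000050856, chr5:108433244-108434448 on the minus strand of mm10, 563 bases of exons) encodes subunit e, a small membrane protein at the contact between 2 ATP synthase monomers. At the end of the regimens its groups overlapped broadly, and after refeeding every IF16-R value lay below every AL-R and every EOD-R value. The highest IF16-R library was replicate 2 with 38.5 CPM, and the lowest AL-R and EOD-R values were 40.9 and 40.0 CPM.

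**Figure D2:**
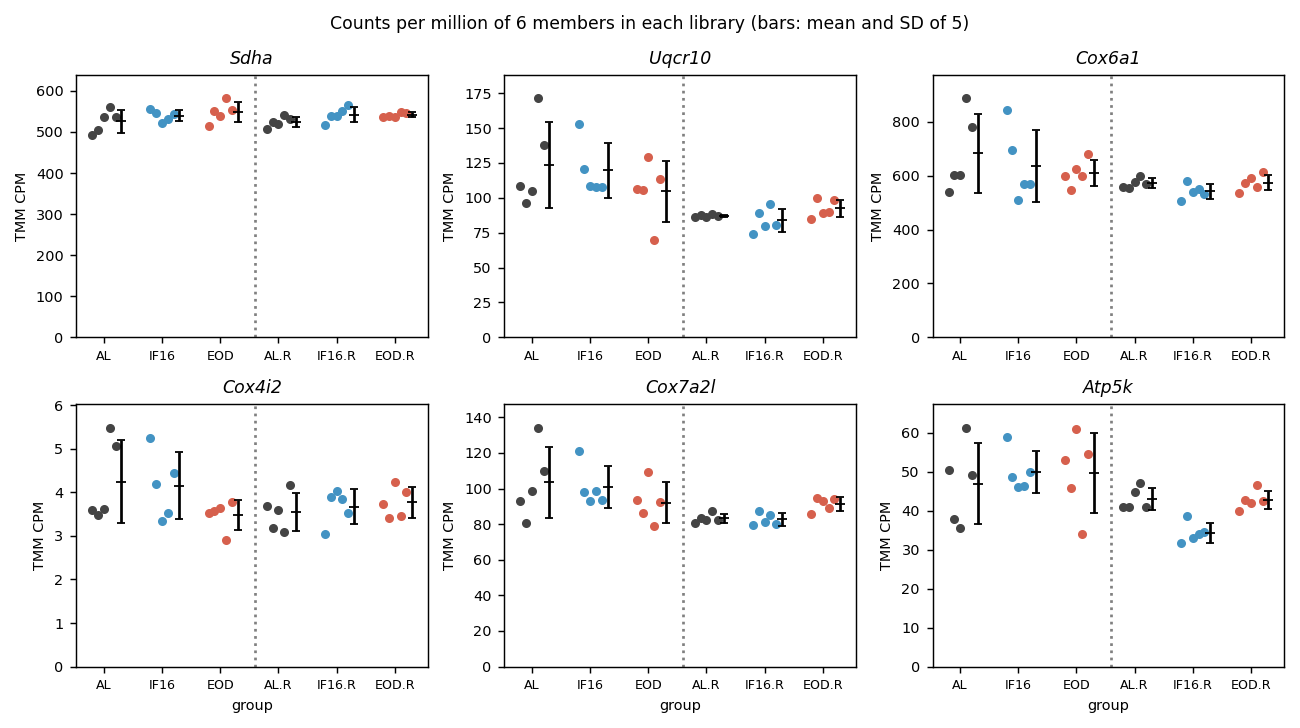
TMM-scaled CPM of 6 members in each of the 30 libraries by group, with black bars for the mean and SD of 5 libraries and a dotted line between the separately scaled tables. Sdha keeps to a narrow band, Uqcr10 and Cox6a1 spread widely at the end of the regimens, and the IF16-R values of Atp5k lie below those of AL-R and EOD-R.

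The members varied together from library to library at the end of the regimens. The coefficient of variation was taken within groups and pooled over the groups of a table as a root mean square. Its median over the 45 tested members was 16.8%, and their median ratio of the highest to the lowest of the 15 libraries was 1.81. After refeeding these were 5.28% and 1.26. After removal of group means, the median Pearson r over the 990 pairs of members was 0.80 at the end of the regimens, with 984 pairs positive. After refeeding it was 0.53, with 883 pairs positive. These correlations describe libraries that share their depth and length gradient, and members are not replicates.

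The mean log2 CPM of the members tracked the length gradient, so it was high where short genes in general read high. Over the 15 libraries at the end of the regimens Pearson's r was -0.91 and Spearman's rho -0.80. With the 2 libraries of most distant gradient left out r was -0.81, and within groups, after removal of group means, -0.94. After refeeding r was -0.77, rho -0.84, r without 2 libraries -0.73 and r within groups -0.53. The same member mean had r of 0.24 and 0.099 with the mean of choroid plexus markers, in the first and the second table. Uqcr10 was the member closest to the mean of the others at the end of the regimens, with r = 0.98 after removal of group means.

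**Figure D3:**
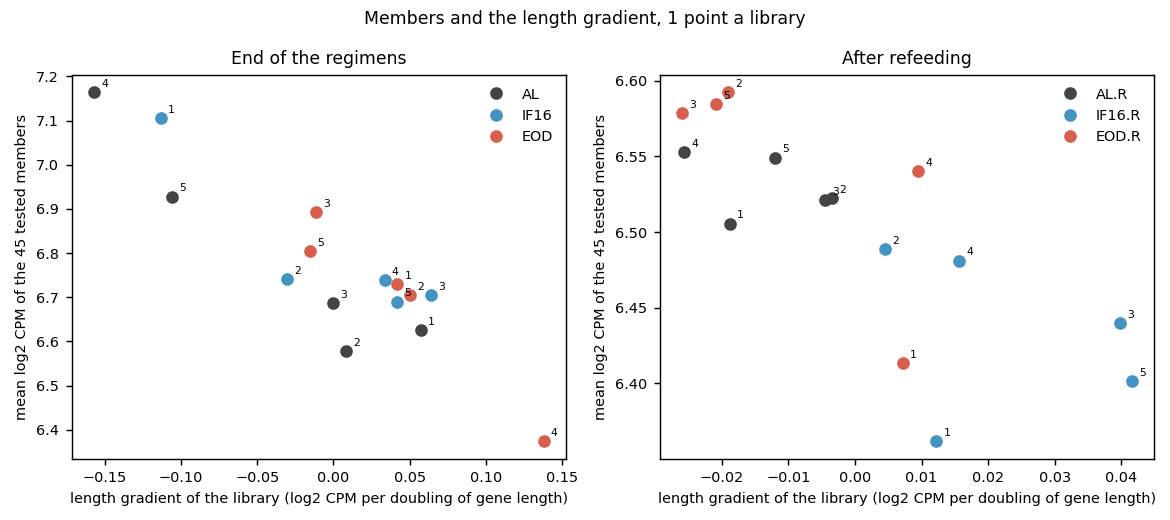
Mean log2 CPM of the 45 tested members (vertical) against the length gradient of the library (horizontal, log2 CPM per doubling of gene length), 1 point a library with its replicate number, at the end of the regimens (left) and after refeeding (right). The points fall from AL replicate 4 with 7.16 at a gradient of -0.16 to EOD replicate 4 with 6.37 at 0.14, and the right panel spans a much narrower range.

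At the end of the regimens no member passed the test. In IF16 vs AL, edgeR called 0 of 45 tested members and 0.0483% of all genes, and 0 members had an unadjusted p under 0.05 against 9.92% of all genes. The median log2 fold change of the members was -0.014, with 21 positive and 24 negative, beside -0.0062 for all genes tested. In EOD vs AL, 0 of 45 members were called against 0.0664% of all genes, and 0 had an unadjusted p under 0.05 against 14.4% of all genes. Their median was -0.12, with 38 of 45 negative, beside -0.018 for all genes. In EOD vs IF16 the count was again 0, where 0% of all genes were called and 3.62% had an unadjusted p under 0.05, and the members' median was -0.11 with 41 negative. DESeq2 also called 0 members in each of these 3 comparisons.

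The direction of these medians turned when the 4 libraries of steep gradient were left out, a choice made after seeing the data. Those libraries had the highest member means of AL (7.16 and 6.93 log2 CPM) and IF16 (7.10) and the lowest of EOD (6.37). A rise of the median in EOD vs AL and EOD vs IF16 was therefore built into the choice. In both comparisons the median stayed negative without any single library. Without the 4 libraries the median was 0.093 in IF16 vs AL (42 of 45 positive), 0.14 in EOD vs AL (44 of 45 positive) and 0.029 in EOD vs IF16 (36 of 45 positive), with 0 members called in each. By complex the EOD vs AL medians over all libraries were -0.079 for complex II, -0.12 for complex III, -0.14 for complex IV and -0.12 for complex V. A trend of fold change on length fitted over the other genes had a median of -0.14 at the members' lengths in EOD vs AL, and the members' median residual from it was 0.0082, with 26 above and 19 below. With the length gradient as a covariate 43 of 45 members were positive in EOD vs AL and 42 of 45 in IF16 vs AL. Of them 4 and 8 had an unadjusted p under 0.05 on the higher side and 0 were called. No share of all genes is given for this fit, so these counts are not set against a background. In IF16 vs AL the trend was -0.053 and the residual 0.043, with 33 members above.

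After refeeding, 1 member fell in the mice that had been on the daily fast, Atp5k. In IF16-R vs AL-R its log2 fold change was -0.32 (SE 0.0571, edgeR adjusted p = 0.0312), lower in 5 of 5 libraries than any AL-R library. edgeR called 1 of 45 members and 0.17% of all genes. DESeq2 called 4 members, and edgeR fitted on only the groups compared called 2, all lower. No share of all genes is given for these 2 fits. A total of 19 members had an unadjusted p under 0.05 and a lower level, and 0 a higher level, against 4.83% of all genes on the lower side. The median log2 fold change was -0.080, with 41 of 45 negative, beside -0.0023 for all genes. The 4 members with a positive value were Cox4i2, Sdha, Atp5b and Atp5a1, the last of them the alpha subunit of ATP synthase. The lowest value was that of Cox8b, with -0.55 (SE 0.312, unadjusted p = 0.0965), which rests on few counts.

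By complex, 0 of 4 members of complex II, 4 of 8 of complex III, 7 of 16 of complex IV and 8 of 17 of complex V had an unadjusted p under 0.05 in IF16-R vs AL-R. The CPM values of 8 members did not overlap between the groups and were lower in IF16-R (Atp5k, Atp5g1, Atp5o, Cox5a, Cox5b, Cox6b1, Cox7c and Uqcrb), against 1.11% of all genes. Next to Atp5k in p were 3 members of complex IV that did not pass the edgeR test over all groups, named here after their values were seen. Cox6b1, a subunit at the contact of the complex IV dimer, had -0.19 (edgeR adjusted p = 0.0877). Cox5a, a matrix-side subunit, had -0.21 (edgeR adjusted p = 0.0910), and Cox7c, a small membrane subunit, -0.21 (edgeR adjusted p = 0.152).

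The length gradient moved with these differences. Its mean was -0.013 ± 0.0095 over AL-R, 0.023 ± 0.017 over IF16-R and -0.0098 ± 0.017 over EOD-R (SD, 5 libraries each), and every IF16-R library was above every AL-R library. All 5 IF16-R libraries also had a member mean below all 5 AL-R libraries, 6.36 to 6.49 against 6.51 to 6.55 log2 CPM. After removal of the length trend the ranges were 6.40 to 6.50 and 6.47 to 6.53, which overlap. Genes under 600 bases that are no members had a median log2 fold change of -0.10 in IF16-R vs AL-R, and the 11 members of that length -0.13.

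Over the other genes, the trend of fold change on length had a median of -0.063 at the members' lengths in IF16-R vs AL-R, and the members' median residual was -0.029, with 30 of 45 below. With the length trend as an offset in the fit, 10 members had an unadjusted p under 0.05, all lower, and none was called. Atp5k then had -0.23 with an edgeR adjusted p of 0.168. With the gradient as a covariate, 2 members had an unadjusted p under 0.05, 23 of 45 were positive, and Atp5k had -0.28 with an edgeR adjusted p of 0.9998. The gradients of IF16-R and AL-R did not overlap, so this fit cannot tell group and gradient apart well and has little power. For neither length setting is a share of all genes given beside the counts. The call of Atp5k also ended without any 1 of the 5 AL-R libraries and without IF16-R replicate 3, 4 or 5, with edgeR adjusted p from 0.0524 to 0.109 and log2 fold changes from -0.28 to -0.34. It held without IF16-R replicate 1 or 2.

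**Figure D4:**
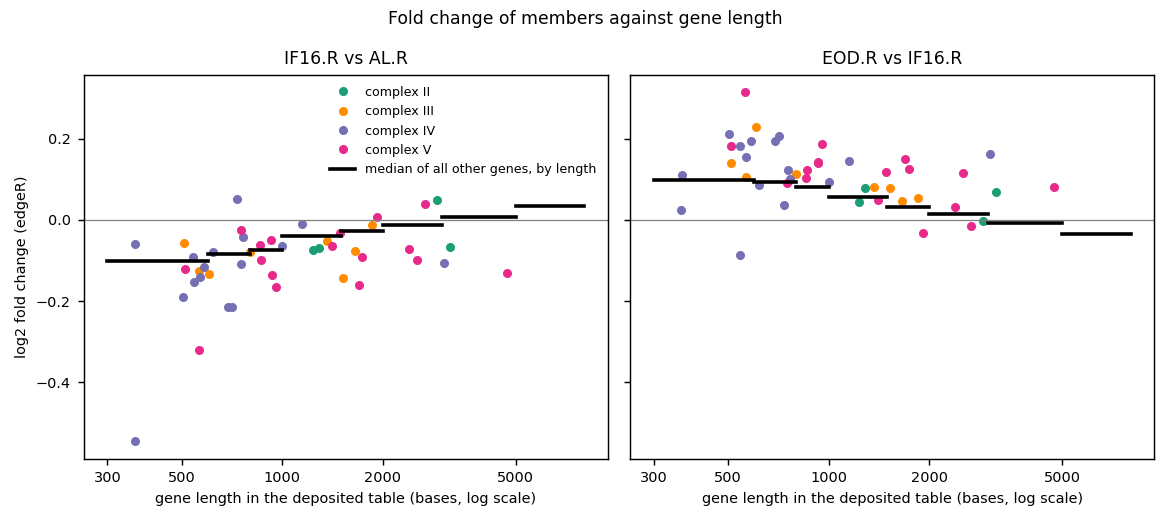
Log2 fold change of the 45 tested members (points, coloured by complex) against gene length in bases on a log axis, for IF16-R vs AL-R (left) and EOD-R vs IF16-R (right), with black lines for the median of all other genes in 8 classes of length. The other genes under 600 bases have medians of -0.10 on the left and 0.099 on the right, and Atp5k lies at -0.32 on the left and 0.32 on the right.

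In the mice refed after alternate-day fasting no member passed the test against AL-R. In EOD-R vs AL-R, 0 of 45 members were called against 0.0426% of all genes, and 1 had an unadjusted p under 0.05 on the higher side against 4.51% of all genes. DESeq2 also called 0. That member was Cox7a2l, with a log2 fold change of 0.13 (SE 0.0380, unadjusted p = 0.00224, edgeR adjusted p = 0.283). The members' median was 0.022, with 31 positive and 14 negative. Atp5k had -0.0043 (SE 0.0567).

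Between the refed regimens most members stood higher in EOD-R, and none passed the test. In EOD-R vs IF16-R, edgeR called 0 of 45 members and 0.0182% of all genes, while 23 members had an unadjusted p under 0.05 on the higher side against 4.99% of all genes. The median was 0.11, with 41 of 45 positive, and only Atp5k had no overlap between the groups, against 0.791% of all genes that were higher without overlap. Its log2 fold change was 0.32 (SE 0.0572, edgeR adjusted p = 0.0760). With the length gradient as a covariate 4 members had an unadjusted p under 0.05 on the higher side and the median was 0.030, and with the length trend as an offset these were 11 members and 0.042. Counts of called members in this comparison varied with the tool: DESeq2 called 9, and edgeR called 7 without EOD-R replicate 1 and 1 without IF16-R replicate 2. The shares of all genes above are those of the main fit, and none is given for these fits or for the 2 length settings. The comparison shares its IF16-R libraries with the preceding one, so the values for Atp5k are not independent.

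**Figure D5:**
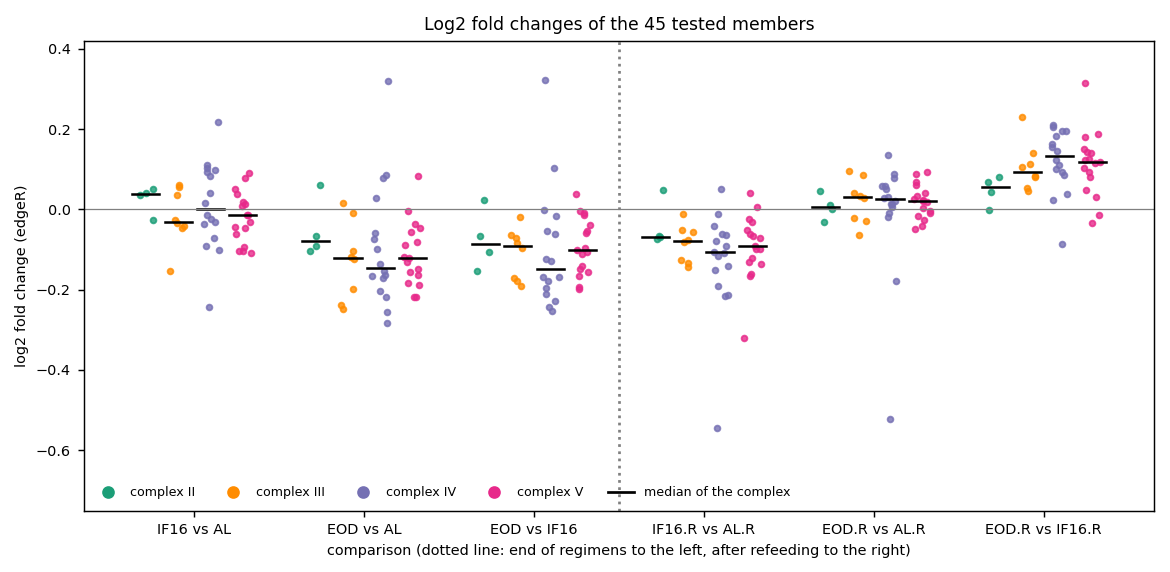
edgeR log2 fold changes (vertical) of the 45 tested members in 6 comparisons, 1 point a member, coloured by complex, with black bars for the median of each complex. In IF16-R vs AL-R 41 points lie below 0 and in EOD-R vs IF16-R 41 lie above. The medians of the 3 comparisons at the end of the regimens turn positive without 4 libraries of steep length gradient. These 4 were chosen after seeing the data and held the highest member means of AL and IF16 and the lowest of EOD.

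The difference between the phases was tested as an interaction over all 30 libraries, as the refed minus the unrefed difference from the controls. For IF16, 0 of 45 members were called against 0.0474% of all genes, and 3 had an unadjusted p under 0.05 on the lower side (Atp5k, Cox7c and Cox5a) against 3.28% of all genes. Atp5k had -0.41 (SE 0.171, edgeR adjusted p = 0.620), so its fall in IF16-R was not shown to differ from the value at the end of the regimen. For EOD, 0 members were called against 0.0119% of all genes, and 2 had an unadjusted p under 0.05 on the higher side (Cox7a2l and Atp5s) against 5.48% of all genes. Cox7a2l had 0.30 (SE 0.129, edgeR adjusted p = 0.467). Without the 4 libraries of steep gradient Cox7a2l had 0.067 in this interaction. The members' median in the IF16 interaction was -0.089 with all libraries and -0.16 without those 4, and in the EOD interaction it was 0.14 with all libraries and -0.12 without them. DESeq2 called 0 members in both.

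Other genes of the same machinery were read from lists. In IF16-R vs AL-R the nuclear subunits of complex I, the entry point for electrons from NADH, had a median log2 fold change of -0.081. Of these 36 genes 15 had an unadjusted p under 0.05 and were lower, against 4.83% of all genes on the lower side. Genes that are no members had a median of -0.10 under 600 bases and -0.074 from 800 to 1000 bases, and complex I genes were not matched for length. Assembly factors of complexes II to V had 3 of 29 lower at an unadjusted p under 0.05, 25 negative at any p and a median of -0.051. The 9 subunits and partners outside the symbol rule had 6 lower at that p, 9 negative and a median of -0.12. Enzymes of the tricarboxylic acid cycle, which feed the chain, had 1 of 14 lower at that p, 9 negative and a median of -0.023. Regulators of respiratory gene transcription had 0 of 12 lower at that p, 4 negative and a median of 0.011. None of these genes was called.

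Subunits encoded by the mitochondrial genome held 2 called genes of 6 in IF16-R vs AL-R, mt-Atp6 and mt-Co3, both lower. mt-Atp6, the proton channel subunit a that works against the c ring, had -0.46 (SE 0.079, edgeR adjusted p = 0.0312), and mt-Co3 -0.44 (SE 0.078, edgeR adjusted p = 0.0312). Of the uncalled genes, mt-Co2 had -0.39 (edgeR adjusted p = 0.0947) and mt-Atp8 -0.91 (unadjusted p = 0.0238, edgeR adjusted p = 0.444). Near-identical copies of mitochondrial genes in the nuclear genome can share such reads, so these counts are uncertain. The value of mt-Co1 was 0.052 (SE 0.038) and that of mt-Cytb -0.038 (SE 0.040), both longer genes. For comparison, in EOD-R vs AL-R mt-Atp6 had -0.34 (edgeR adjusted p = 0.171).

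Markers of astrocytes and Bergmann glia had positive values in IF16-R, with 2 of 7 called against AL-R, Gja1 (log2 fold change 0.31, edgeR adjusted p = 0.0116) and Aqp4 (0.23, edgeR adjusted p = 0.0374), and 7 of 7 positive. In EOD-R vs AL-R they were also positive in 7 of 7, and Gja1 was called there at 0.27 (edgeR adjusted p = 0.0427). Their summed level spanned 2669 to 2905 CPM over AL-R, 2913 to 3156 CPM over IF16-R and 2867 to 3134 CPM over EOD-R. Choroid plexus markers spanned 166 to 2763 CPM over AL-R, 156 to 1037 CPM over IF16-R and 167 to 3054 CPM over EOD-R, and 0 of 12 passed the test. With the choroid plexus mean as a covariate Atp5k remained called in IF16-R vs AL-R at -0.33 (edgeR adjusted p = 0.0203). Also in IF16-R vs AL-R, red blood cell markers were negative in 5 of 5 (median -0.88) and muscle markers in 4 of 4 tested (median -0.85), each with 2 at an unadjusted p under 0.05, and oligodendrocyte markers were positive in 5 of 6 (median 0.11, 2 at an unadjusted p under 0.05). In EOD-R vs AL-R the medians of these lists were -1.61, -0.42 and 0.15. The part of these markers in the members' values was not tested.

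The promoters of the members were read for 4 motifs of factors known to drive respiratory genes, on both strands. The stretch read ran from 250 bases before to 50 bases after the start in RefSeq (GRCm38.p6). Any part of these motifs in the shared movement of members between libraries was not tested. Promoters were matched for 37 of 47 members. The NRF1-type motif GCGCATGCG was found in 6 of 37 members (16.2%) and in 2.61% of 17492 protein-coding genes. The ETS-type motif CCGGAAG, bound by GABP, was found in 12 of 37 (32.4%) and in 12.9% of genes. The YY1-type motif AAGATGGCG was in 3 of 37 (8.11%, all genes 2.14%) and the SP1-type motif GGGCGG in 14 of 37 (37.8%, all genes 49.2%). No 2 of these motifs contain each other. A match is a description of letters and not a bound site.

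The 6 windows with the NRF1-type motif are shown because they hold Atp5k, the called member, and Cox6a1, the most abundant one. Capitals mark the motif, in 4 windows both strands overlapped to 10 bases, and each is written in the direction of its gene.
Atp5g2: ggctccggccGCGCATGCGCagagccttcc
Atp5k: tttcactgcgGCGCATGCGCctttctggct
Atp5l: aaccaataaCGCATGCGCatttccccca
Cox6a1: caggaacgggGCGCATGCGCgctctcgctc
Uqcr11: atcgccttcaCGCATGCGCtatacgtctg
Uqcrc1: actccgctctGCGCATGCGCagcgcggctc
Windows lie at chr15:102671070-102671099 (Atp5g2, minus strand), chr5:108434430-108434459 (Atp5k, minus strand), chr9:44920965-44920992 (Atp5l, minus strand), chr5:115349101-115349130 (Cox6a1, minus strand), chr10:80406808-80406836 (Uqcr11, minus strand) and chr9:108936668-108936697 (Uqcrc1, plus strand). In Atp5k the motif starts 50 bases before the RefSeq start, in Atp5g2 42, in Cox6a1 162, in Atp5l 241 and in Uqcr11 5 bases before it, and in Uqcrc1 30 bases after it. The deposited annotation has other starts for some of them. Atp5k starts at 108434448 there and at 108434399 in RefSeq. Atp5g2 starts at 102672352 there and at 102671047 in RefSeq, so its motif lies inside the deposited gene. Of these 6 members, 4 also hold the ETS-type motif, again in capitals.
Atp5k: ctcagttgagCTTCCGGcgcgaaggtc
Atp5l: cttcaccgatCTTCCGGaccaacatga
Cox6a1: cccatttccgCTTCCGGcgcgccggtg
Uqcr11: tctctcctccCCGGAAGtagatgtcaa
These windows lie at chr5:108434371-108434397 (Atp5k, minus strand), chr9:44920938-44920964 (Atp5l, minus strand), chr5:115348958-115348984 (Cox6a1, minus strand) and chr10:80406871-80406897 (Uqcr11, minus strand). The ETS-type motif of Uqcr11 reads CCGGAAG in the direction of the gene, and the other 3 carry its reverse complement.

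The 6 members with the NRF1-type motif differed in size of change, and all were negative, as were 41 of all 45 tested members. In IF16-R vs AL-R their log2 fold changes were -0.32 for Atp5k, -0.13 for Uqcr11, -0.078 for Cox6a1, -0.076 for Uqcrc1, -0.12 for Atp5l and -0.024 for Atp5g2, of which edgeR called Atp5k alone. The regulators themselves had small differences in that comparison: 0.021 (SE 0.052) for Nrf1 and 0.0096 (SE 0.059) for Gabpa, the ETS factor of this motif, whose gene overlaps Atp5j on the opposite strand. In EOD vs AL, 3 of 12 listed regulators were higher and 1 lower at an unadjusted edgeR p under 0.05, against 14.4% of all genes. Nrf1 had -0.16 (SE 0.059, unadjusted p = 0.0160, edgeR adjusted p = 0.317). Ppargc1a, a coactivator of Nrf1 and Gabpa, had 0.30 (SE 0.13, unadjusted p = 0.0356, edgeR adjusted p = 0.332), Pprc1 0.21 and Creb1 0.30. The 3 higher genes exceed 5000 bases, a length at which other genes had a median of 0.15. In EOD-R vs IF16-R Ppargc1b had -0.44 (unadjusted p = 5.6e-05, edgeR adjusted p = 0.115).

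A further feature that the symbols do not use is the position next to a gene on the opposite strand. Of the 47 members, 11 (23.4%) had a neighbour read in the other direction, with its start at most 1000 bases away or overlapping by up to 500 bases, against 9.41% of 22026 protein-coding genes. Examples are Sdha with Ccdc127 at 29 bases between starts, Sdhd with Timm8b, a mitochondrial import chaperone, at 52 bases, and Atp5c1 with Kin at 83 bases. This concerns subunits of all 4 complexes and is a description of the annotation.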

How the data were processed

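RNA-seq of 30 cerebellum libraries was used, and 12 ChIP samples of the series were not analysed here. The deposited read counts per gene were made by the authors, and the submitters' processing notes list mm10, STAR 2.5, HTSeq 0.6.1 and DESeq2 2 without giving their roles. The authors' deposited FPKM values were used for levels between genes. The strand setting of the counting is not given in the sources used here, so reads of genes that overlap on opposite strands cannot be told apart. The unrefed and the refed libraries came in separate tables of 35275 genes, and pairs of groups were tested only within a table. Levels and spreads of both tables stand side by side in places. The tables were scaled separately and differ in age, so such differences were not tested.

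Counts were tested with edgeR 4.0.16 (quasi-likelihood test, limma 3.58.1, R 4.3.3) after a filter on low counts by group and TMM scaling, over 16577 genes at the end of the regimens, 16444 after refeeding and 16877 in the joint fit for interactions, with all groups of a table in 1 fit. P-values were adjusted by Benjamini-Hochberg over all genes of the fit, and a call is an adjusted p under 0.05. The standard error is the absolute log2 fold change divided by the square root of F. Scripts were tested on simulated data. Alternatives were DESeq2 1.42.0, RLE scaling, no filter, the length gradient as a covariate, a lowess trend on length as an offset (span 0.3), the choroid plexus mean as a covariate, a replicate block, only the groups compared and leaving out each library. Leaving out the 4 libraries of steep length gradient was added after seeing the data. Pairwise chi-square tests between libraries of a group found none that agree within sampling noise (60 pairs, chi-square over its degrees of freedom from 4.25 to 135). Replicate numbers were not used to pair libraries in the main fit, since not every same-numbered pair correlated above 0.1. That criterion does not exclude a shared block, and after refeeding 8 of 15 pairs were above 0.1.

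The members and gene lists were chosen with earlier results of these data known. Values in every library are given for called members, for the smallest p in each comparison, for complex II, for the most abundant member of each complex and for 5 isoform families. Total counts of the groups overlapped within each table, and intervals from counts cover counting error only.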

Additional observations from a re-analysis of the deposited data

Results flagged for a closer look

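Among 138 group values of 5 libraries, 10 held a library that stood far from the other 4 by Dixon's criterion, and chance flags about 1 in 20 groups. IF16 replicate 1 was the high library in 6 of them. It had 129.6 CPM of Sdhc (others 108 to 114), 153 CPM of Uqcr10 (others 108 to 120), 121 CPM of Cox7a2l (others 92.9 to 98.8) and 349.5 CPM of Atp5g3 (others 285 to 298). Its members had a mean of 7.10 log2 CPM (others 6.69 to 6.74) and held 1.21% of its counts (others 0.966% to 1.01%). This is 1 of the 4 libraries with a steep length gradient.

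Of the other 4, Cox4i2 stood at 2.90 CPM in EOD replicate 4 (others 3.54 to 3.77) and Cox8b at 1.52 CPM in AL replicate 4 (others 0.685 to 0.908), both of them libraries of steep length gradient. Cox6a2 stood at 0.357 CPM in AL-R replicate 4 (others 0.0600 to 0.0978), a value that rests on few counts. Sdhc stood at 82.6 CPM in EOD-R replicate 1 (others 93.0 to 96.1).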

How the results depend on the processing

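The number of called members in IF16-R vs AL-R (1) became 4 with DESeq2, 4 with the replicate block, 2 with only the groups compared, 0 with the gradient covariate and 0 with the length offset, and 0 to 1 without single libraries. In EOD-R vs IF16-R (0) it became 9 with DESeq2, 1 without the filter, 3 with the replicate block and 0 to 7 without single libraries. No share of all genes is given beside these counts. They therefore do not show whether members alone or genes in general were called more often. The labels do not say what libraries of the same replicate number share. Same-numbered libraries correlated from -0.53 to 0.32 at the end of the regimens and from -0.055 to 0.43 after refeeding. In 2 and 11 of 30 checks a library correlated best with its own number, and 3 and 8 of 15 pairs were above 0.1. A block shared by number was therefore not excluded after refeeding, where the block changed the counts of called members. The median of the members in IF16-R vs AL-R was 0.0021 with the gradient covariate and -0.029 with the length offset, and in EOD-R vs IF16-R 0.030 and 0.042. Without the 4 libraries of steep gradient the medians were 0.14 in EOD vs AL and -0.12 in the EOD interaction, which was -0.067 with the gradient covariate, and Cox4i2 turned to 0.024 in EOD vs AL. The cause was not tested. Without single libraries the medians ran from -0.083 (without IF16 replicate 1) to 0.091 (without AL replicate 4) in IF16 vs AL, from -0.17 to -0.023 (without AL replicate 4) in EOD vs AL, from -0.15 to -0.026 (without IF16 replicate 1) in EOD vs IF16, from -0.10 to -0.064 in IF16-R vs AL-R, from 0.0049 to 0.054 in EOD-R vs AL-R, from 0.088 to 0.14 in EOD-R vs IF16-R, from -0.17 (without AL replicate 4) to 0.019 (without IF16 replicate 1) in the IF16 interaction and from 0.031 (without EOD replicate 4) to 0.18 in the EOD interaction. Members near the limit of detection (Cox8b, Cox7b2 and Cox6a2) rest on few counts at this depth.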
